A study of Homo sapiens with 6 samples.

Results

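The genes described here are SCARA5, a cell-surface receptor for ferritin, and 9 genes that take up, store, release or sense iron, measured by RNA sequencing in HCCLM3 cells. They were chosen by name as 10 of the 20263 rows of a gene count table: SCARA5, TFRC, FTH1, FTL, SLC40A1, SLC11A2, STEAP3, NCOA4, IREB2 and ACO1. HCCLM3 is a cell line from a human liver cancer (hepatocellular carcinoma) with high metastatic capacity. The cells received CC-885 or its solvent DMSO for 24 h in DMEM with serum, and no other agent or engineered allele is named in the labels. Each group held 3 libraries. CC-885 is a small molecule that binds cereblon, a receptor subunit of a ubiquitin ligase, and brings new proteins to it for degradation. No source used here gives its dose. The study's title names the Golgi protein GOLM1 as the target whose loss it examined.

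The list was drawn up with results of this same comparison known, the low SCARA5 level with CC-885 among them. The members' values are therefore given as a description, with the log2 fold change and its standard error (SE) but with no p-value. Genes outside the list were tested, but the wider gene lists were also chosen with earlier results of these data known. Their counts beside the share of all genes are therefore a description too.

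Total counts per library ran from 30432509 to 39809131. Correlations of log2 expression were 0.977 or higher within a group and 0.946 or lower between groups. Whether the 3 libraries of each group stem from separate cultures is not in the labels. The p-values weigh the difference between groups against a spread estimated from these libraries and shared in part across genes. That spread may be technical. In bulk RNA, fewer cells that express a gene and less RNA per cell cannot be told apart. The labels describe human liver cancer cells, yet 6 of 10 hepatocyte markers, ALB, APOB and AFP among them, were at 0 counts in every library. All 10 together summed to 1.23 to 1.55 CPM with DMSO and to 0.174 to 0.52 CPM with CC-885, where CPM is the count scaled to the TMM-adjusted library size. The only hepatocyte marker tested, the transcription factor HNF4A, was lower (log2 fold change -2.50, edgeR quasi-likelihood test, adjusted p = 0.00156). It had 53, 49 and 34 counts with DMSO and 5, 16 and 2 with CC-885. HNF4A passed the filter on low counts only through its DMSO libraries, so its lower direction is not read as a result. Of 4 tested epithelial markers 1 was lower, where 26.8% of all tested genes were lower. It was the keratin KRT8, at 890 ± 106 CPM with CC-885 where DMSO gave 1252 ± 136 CPM (-0.49, adjusted p = 0.0236). KRT8 missed the threshold in 4 of the 6 fits that left out a library (-0.54 to -0.39, adjusted p from 0.0595 to 0.117), and it shares 525 bp of exon with KRT18 on the opposite strand. Macrophage markers summed to 4.82 to 5.4 CPM with DMSO and 3.93 to 4.85 CPM with CC-885, with PTPRC, LYZ and AIF1 at 0 and none called. HNF4A and KRT8 are named after their values were seen.

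Cells take up iron bound to transferrin through the transferrin receptor TFRC, reduce it in the endosome with STEAP3 and move it into the cytosol through SLC11A2. Ferritin, a shell of FTH1 and FTL chains, stores it, NCOA4 delivers ferritin to the lysosome for its release, and ferroportin, encoded by SLC40A1, is the exporter. When iron is scarce, the iron regulatory proteins IRP1 (ACO1) and IRP2 (IREB2) bind hairpins called iron-responsive elements: in the 5′ untranslated region of ferritin and ferroportin mRNA they block translation, and in the 3′ untranslated region of TFRC mRNA they protect it from decay. Liver cells are the body's main iron store and the source of hepcidin, the hormone that removes ferroportin from the membrane.

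These hairpins are a sequence feature that can be searched for in the members, so the matches are shown first. Untranslated regions of GENCODE 29 protein-coding transcripts were searched on the transcript strand for the letters CNNNNNCAGTGN, an unpaired C followed after 5 bases by a loop of 6. A match was kept where all 5 bases on each side of the loop could pair, G with T included. Each window below runs 5′ to 3′ in the DNA alphabet, and the capitals mark the loop. GRCh38 positions are those of the annotation.
FTH1, 5′ untranslated region, chr11:61967573-61967602, minus strand: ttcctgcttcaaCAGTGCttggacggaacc
FTL, 5′ untranslated region, chr19:48965335-48965364, plus strand: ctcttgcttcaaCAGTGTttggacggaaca
SLC40A1, 5′ untranslated region, chr2:189580660-189580689, minus strand: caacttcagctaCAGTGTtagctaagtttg
TFRC, 3′ untranslated region, chr3:196050978-196051007, minus strand: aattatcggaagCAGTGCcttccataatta
TFRC, 3′ untranslated region, chr3:196050574-196050603, minus strand: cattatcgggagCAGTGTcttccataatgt
TFRC, 3′ untranslated region, chr3:196050509-196050538, minus strand: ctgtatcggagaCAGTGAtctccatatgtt
TFRC, 3′ untranslated region, chr3:196050462-196050491, minus strand: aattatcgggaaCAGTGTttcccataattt

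FTH1, FTL and SLC40A1 each held 1 match in the 5′ untranslated region and TFRC held 4 in the 3′ untranslated region. The other 6 members held none in either, which says only that these letters with a fully paired stem were not in the annotated regions. A hairpin with an imperfect stem would have been missed in any of them, SLC11A2 included, so the search does not divide members with such elements from members without. Of all genes in the table with such regions, 0.19% (36 of 18930) had a match in the 5′ and 0.688% (131 of 19045) in the 3′ untranslated region. The match is a description of sequence, and no binding was measured.

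SCARA5 (ENSG00000168079, chr8:27869882-27992727), a class A scavenger receptor that binds L-ferritin, was the member with the widest difference between the groups. It stood at 16.9, 14.8 and 12.9 CPM in DMSO replicates 1, 2 and 3, and at 1.07, 0.936 and 1.86 CPM in CC-885 replicates 1, 2 and 3. Every DMSO library lay far above every CC-885 library. These levels rest on 649, 544 and 419 counts with DMSO and on 32, 36 and 64 counts with CC-885. The means were 14.9 ± 2.04 and 1.29 ± 0.5 CPM (SD, n = 3), 11.5-fold lower with CC-885 on the fitted scale (log2 fold change -3.53, SE 0.25). Its log2 fold change ranked 54 from the lowest among all 13444 tested genes and 2 from the lowest among the 10803 with a mean of at least 5 CPM, a rank that is a description since the gene was chosen for it. An annotated antisense transcript shares 163 bp of exon with SCARA5, and since no source says that strand was used in counting, the reads of both cannot be told apart.

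Of 7 relatives of SCARA5, 3 were tested and 1 was lower, where 26.8% of all tested genes were lower. SCARA3, another class A member, averaged 305 ± 49.4 CPM in the DMSO and 316 ± 8.82 CPM in the CC-885 libraries (log2 fold change 0.05, SE 0.15, edgeR quasi-likelihood test, adjusted p = 0.778), and its sign turned with library size scaling, with a stricter expression filter or without DMSO replicate 2. The macrophage receptors MSR1 and MARCO and the collectin COLEC12 had 0 counts in all libraries but 1 each for MARCO (6 counts) and COLEC12 (2 counts). Among the class B receptors, the lysosomal membrane protein SCARB2 was lower, averaging 59.3 ± 12.8 CPM where DMSO gave 99.1 ± 4.33 CPM (-0.74, adjusted p = 0.00211). The HDL receptor SCARB1 stood at 173 ± 13.2 against 221 ± 41.7 CPM (-0.35, adjusted p = 0.0828) and passed the test without DMSO replicate 2 (-0.49, adjusted p = 0.00332). SCARB1 and SCARB2 are named after their values were seen.

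SCARA5 is known as a gene of fibroblasts, so a fibroblast marker list was examined beside the other markers. Among those others, HNF4A and KRT8 were lower, with the limits given above, and all other tested markers were not called. Of the 8 fibroblast markers 5 were tested, and 3 were lower and 1 higher. Of all tested genes 26.8% were lower and 25.8% higher. The receptor PDGFRB averaged 70.9 ± 10.7 CPM in the DMSO and 14.1 ± 0.37 CPM in the CC-885 libraries (log2 fold change -2.33, adjusted p = 8.63e-07). Decorin, DCN, averaged 1.21 ± 0.308 CPM in the DMSO and 0.126 ± 0.00902 CPM in the CC-885 libraries (-3.23, adjusted p = 8.21e-05). These levels rest on few counts, 55, 49 and 28 with DMSO and 4, 5 and 4 with CC-885. DCN and THY1 passed the filter on low counts only through their DMSO libraries, so their lower direction is not read as a result. THY1 was lower at under 2 CPM in every library (-1.44, adjusted p = 0.0175), which missed the threshold when DMSO replicate 1 (-1.26, 0.0742) or either of the CC-885 libraries 2 (-1.11, 0.0785) and 3 (-1.27, 0.076) was left out. COL1A1 was higher, averaging 104 ± 6.22 CPM in the DMSO and 155 ± 16.3 CPM in the CC-885 libraries (0.58, adjusted p = 0.00327). The list as a whole summed to 152 to 186 CPM with CC-885 and 159 to 190 CPM with DMSO, LUM was at 0 in every library, and PDGFRA and COL1A2 had counts in 1 library each. These marker genes are named after their values were seen, and their part in the SCARA5 values was not tested.

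The transcripts most like SCARA5 over the 6 libraries were, in order, METTL7A, FAM13C, C1QTNF3-AMACR and ANGPTL2. Likeness was the root mean square difference of log2(CPM + 0.5) after subtracting each gene's DMSO mean, over 12303 tested genes with a mean of at least 1 CPM, and it ran from 0.336 to 0.403. ANGPTL2, a secreted angiopoietin-like protein, was at 4.49, 3.21 and 4.08 CPM with DMSO and at 0.167, 0.182 and 0.145 CPM with CC-885. METTL7A, a methyltransferase-like protein of lipid droplets, was at 4.52, 4.3 and 3.93 CPM with DMSO and at 0.0666, 0.26 and 0.174 CPM with CC-885. All 4 were nearly absent with CC-885 and were less abundant than SCARA5 with DMSO, at mean levels between 3.21 and 4.61 CPM. The pseudocount shrinks the difference of such low genes, so likeness on this scale does not mean an equal fold. C1QTNF3-AMACR is a readthrough gene that shares 2660 bp of exon with AMACR and 653 bp with C1QTNF3, and FAM13C shares 1609 bp with PHYHIPL of the other strand, which makes both counts uncertain.

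**Figure D1:**
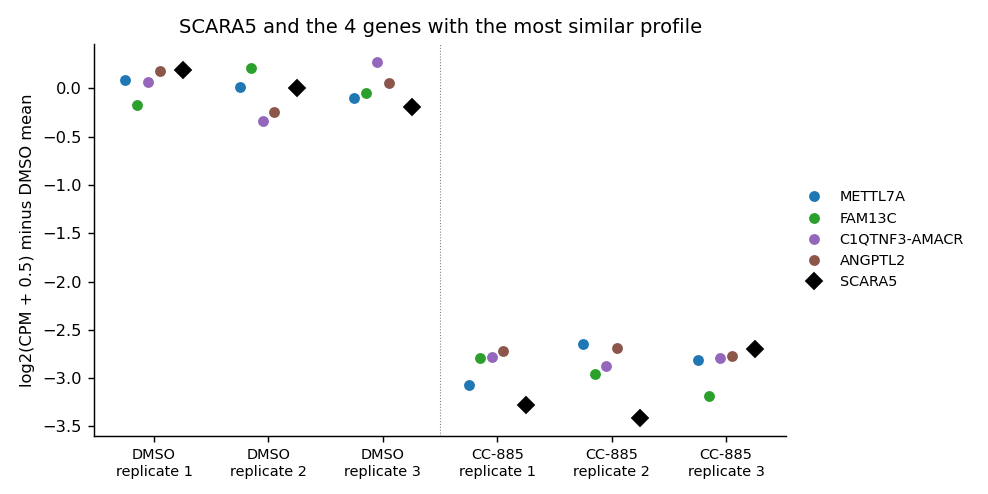
Each point is log2(CPM + 0.5) minus the gene's own DMSO mean in 1 library, for SCARA5 (black diamonds) and the 4 genes with the smallest root mean square difference from it. All CC-885 points of the 5 genes lie below all DMSO points, which follows from choosing genes by likeness to SCARA5. SCARA5 in CC-885 replicate 3, at 1.86 CPM, lies above its other CC-885 libraries.

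Among the uptake genes, TFRC and SLC11A2 were higher with CC-885 while STEAP3 was lower. TFRC (ENSG00000072274, chr3:196027183-196082189) was at 173, 273 and 197 CPM in the DMSO libraries and at 617, 691 and 683 CPM in the CC-885 libraries. The groups did not overlap, and DMSO replicate 2 was the highest of its group. The means were 214 ± 52.3 and 663 ± 40.7 CPM (SD, n = 3), a log2 fold change of 1.63 (SE 0.18). SLC11A2 (ENSG00000110911, chr12:50979401-51028566), which encodes the divalent metal transporter DMT1, was at 71.6, 77.9 and 71.9 CPM with DMSO and at 93.7, 102 and 95.7 CPM with CC-885. Its groups did not overlap either, but the difference was small (log2 fold change 0.40, SE 0.12). STEAP3 (ENSG00000115107, chr2:119223831-119265652), the ferrireductase of the transferrin endosome, was at 108, 85.6 and 108 CPM with DMSO and at 53.1, 46.3 and 46.6 CPM with CC-885. Each CC-885 library lay below each DMSO library (log2 fold change -1.05, SE 0.14). STEAP3 shares 500 bp of exon with the antisense transcript STEAP3-AS1.

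**Figure D2:**
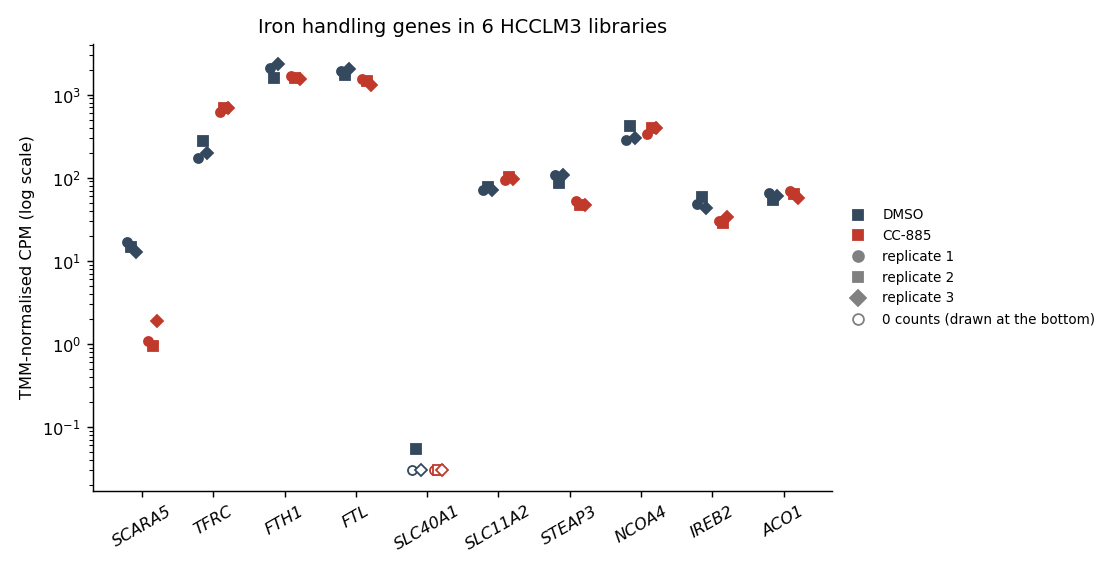
TMM-normalised CPM (log axis) of the 10 genes in each of the 6 libraries, DMSO in dark blue and CC-885 in red, with a marker shape for each replicate number and open markers for 0 counts. SCARA5, STEAP3, IREB2 and FTL lie lower in every CC-885 library than in any DMSO library, TFRC and SLC11A2 lie higher, and SLC40A1 has counts in DMSO replicate 2 only.

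The ferritin chains were the most abundant members, with differences of 1.25-fold for FTH1 and 1.32-fold for FTL. FTH1 (ENSG00000167996, chr11:61959718-61967660), the heavy chain that oxidises iron, was at 2063, 1578 and 2315 CPM with DMSO and at 1671, 1566 and 1525 CPM with CC-885. DMSO replicate 2 fell within the CC-885 range, so the groups overlapped (log2 fold change -0.32, SE 0.18). FTL (ENSG00000087086, chr19:48965301-48966878), the light chain that helps to form the mineral core, was at 1936, 1737 and 2007 CPM with DMSO and at 1548, 1441 and 1314 CPM with CC-885. Its groups did not overlap (log2 fold change -0.40, SE 0.16). NCOA4 (ENSG00000266412, chr10:46005088-46030714), the receptor that carries ferritin to the autophagosome, was at 287, 413 and 299 CPM with DMSO and at 334, 399 and 400 CPM with CC-885. DMSO replicate 2 held its highest value and the groups overlapped (log2 fold change 0.18, SE 0.17). GENCODE 29 lists 25 pseudogenes named after FTH1, 16 after FTL and 3 after NCOA4. None of these has a row among those used here, and no source used here says how reads shared with them were assigned. FTH1 also shares 1267 bp of exon with BEST1 on the opposite strand.

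SLC40A1 (ENSG00000138449, chr2:189560579-189583758), the ferroportin gene, was close to absent. It had 2 counts in DMSO replicate 2 and 0 in the other 5 libraries. A count of 0 allows up to 0.0754 to 0.0986 CPM (3 counts of the library total, counting error only, and more if a fragment was counted more than once). It did not pass the filter on low counts, was not tested, and no fold is given.

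Of the iron regulatory proteins, IREB2 differed between the groups and ACO1 did not separate them. IREB2 (ENSG00000136381, chr15:78437431-78501456), which encodes IRP2, was at 48.5, 59.2 and 43.7 CPM with DMSO and at 29.9, 28.3 and 33.8 CPM with CC-885. Each CC-885 library lay below each DMSO library (log2 fold change -0.72, SE 0.15). ACO1 (ENSG00000122729, chr9:32384603-32454769), which encodes IRP1, an aconitase when it carries an iron-sulfur cluster, was at 66.2, 53.6 and 60.9 CPM with DMSO. With CC-885 it was at 68.3, 64.1 and 57.4 CPM, and the groups overlapped (log2 fold change 0.07, SE 0.13).

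In the fit over all genes, 6 of the 9 tested members had an adjusted p below 0.05, TFRC and SLC11A2 as higher and SCARA5, FTL, STEAP3 and IREB2 as lower, where 52.6% of all 13444 tested genes did (25.8% as higher, 26.8% as lower). The same 6 members had groups that did not overlap, against 61.1% of all tested genes. In 2 of them every CC-885 library was above (29.9% of all tested genes) and in 4 below (31.2%). As the members were chosen on this comparison, nothing is read from these counts. SLC11A2 left the called set without CC-885 replicate 2 (log2 fold change 0.37) or DMSO replicate 1 (0.38). FTL left it without CC-885 replicate 1 (-0.45), replicate 2 (-0.40) or replicate 3 (-0.34), without DMSO replicate 1 (-0.38) or replicate 3 (-0.36), with the size factors of DESeq2 (-0.39) and with no filter on low counts (-0.39). Without DMSO replicate 2, FTH1 (-0.45) and NCOA4 (0.38) entered it.

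Levels of different genes were compared per kb of annotated exon. With DMSO the order was FTL (2157 CPM per kb), FTH1 (978), NCOA4 (81.6), TFRC (27.2), STEAP3 (22.1), ACO1 (7.98), SLC11A2 (7.28), IREB2 (4.67), SCARA5 (3.35) and SLC40A1 (0.00419). Neighbours whose libraries overlapped were TFRC with STEAP3 and ACO1 with SLC11A2. With CC-885 TFRC reached 84.1 CPM per kb, a level whose libraries overlapped with those of NCOA4 (92.6), while STEAP3 was at 10.7, IREB2 at 2.84 and SCARA5 at 0.29 CPM per kb. Exon length over all annotated transcripts overstates the length of the RNA present, so these levels are rough.

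Ratios of 2 transcripts within a library do not depend on how libraries are scaled to each other. The ratio of TFRC to FTH1 counts was 0.0839, 0.173 and 0.085 in the DMSO libraries and 0.369, 0.441 and 0.448 in the CC-885 libraries. The groups did not overlap, and the mean ratio was 3.68 times as high with CC-885. The ratio of FTH1 to FTL counts was 1.07, 0.908 and 1.15 with DMSO and 1.08, 1.09 and 1.16 with CC-885. Here the groups overlapped, with mean ratios of 1.04 ± 0.124 and 1.11 ± 0.0452 (SD, n = 3). The ratio of IREB2 to ACO1 counts was 0.732, 1.1 and 0.717 with DMSO and 0.438, 0.442 and 0.589 with CC-885, again without overlap. DMSO replicate 2 stood apart from the other DMSO libraries in all 3 ratios. These ratios use values of the chosen members and carry no test.

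**Figure D3:**
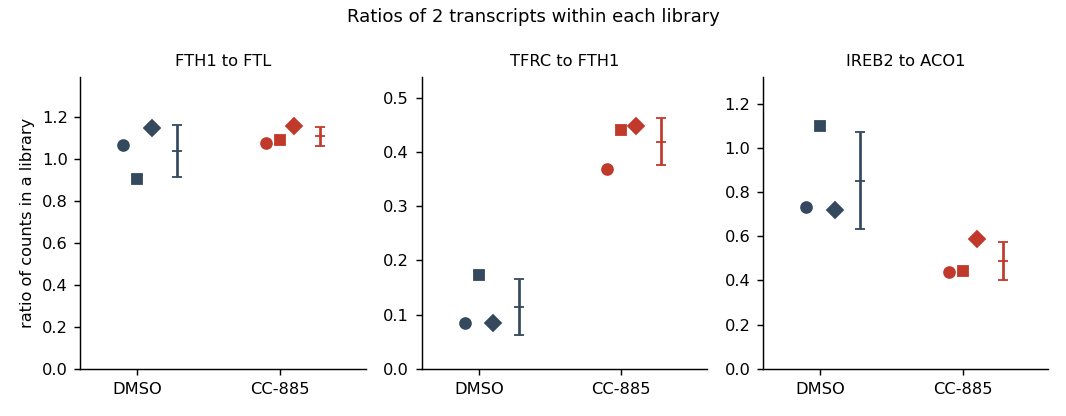
Ratio of the counts of 2 transcripts in each library, for FTH1 to FTL, TFRC to FTH1 and IREB2 to ACO1; points are libraries (circle, square and diamond for replicates 1, 2 and 3), and the bar at the right of each group is the mean ± SD of 3. The TFRC to FTH1 ratio lies between 0.369 and 0.448 with CC-885 and between 0.0839 and 0.173 with DMSO, while the FTH1 to FTL ratio overlaps between the groups.

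The wider iron pathway was examined through 6 lists, chosen with earlier results of these data known, that hold 99 genes besides the members. Of these 87 were tested, 17 were higher and 27 lower, so 50.6% were called where 52.6% of all tested genes were, a share near the background. Their median log2 fold change was -0.22, beside -0.04 for all tested genes. For genes outside the members, adjusted p-values are from the edgeR quasi-likelihood test over all tested genes.

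In the uptake list 2 of 15 tested genes were higher and 2 lower, so 26.7% were called where 52.6% of all tested genes were. HFE, which binds the transferrin receptor and is mutated in hereditary haemochromatosis, was lower in every CC-885 library, at 15.4, 14.7 and 14.3 CPM against 27.7, 33.9 and 22.5 CPM (log2 fold change -0.92 with an SE of 0.16, adjusted p = 0.000703). SNX3, a sorting nexin that recycles the transferrin receptor, was lower as well (-0.46, adjusted p = 0.00784). EXOC6, an exocyst subunit in the transferrin cycle, was higher (0.59, adjusted p = 0.0117), which missed the threshold when DMSO replicate 1 was left out (0.49, adjusted p = 0.0615). The ferrireductase STEAP4 was higher on few counts, 28, 19 and 34 against 6, 4 and 8 (log2 fold change 2.22, adjusted p = 0.00225). STEAP4 passed the filter on low counts only through its CC-885 libraries, so its higher direction is not read as a result. TFR2, the receptor for transferrin typical of liver, did not pass the test at 18.9 ± 1.09 against 22.1 ± 2.39 CPM (-0.22, adjusted p = 0.203). The zinc and iron importer SLC39A14 varied within both groups, at 314, 312 and 152 CPM with CC-885 and 122, 108 and 219 CPM with DMSO (0.79, adjusted p = 0.145), and passed the test without CC-885 replicate 3 (1.07, adjusted p = 0.02). Transferrin itself, TF, had at most 5 counts in any library.

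In the storage list HERC2, a ubiquitin ligase that targets NCOA4, was the only called gene of 4 tested, where 52.6% of all tested genes were called. It averaged 120 ± 22 CPM in the DMSO and 76.5 ± 3.6 CPM in the CC-885 libraries (log2 fold change -0.65, SE 0.15, adjusted p = 0.00356). The mitochondrial ferritin gene FTMT was at 0 in every library.

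Hepcidin was barely detected, and the tested genes that act on it differed in direction. HFE and TFR2, counted above in the uptake list, also act on hepcidin. HFE was lower (-0.92, adjusted p = 0.000703) and TFR2 was not called (-0.22, adjusted p = 0.203). HAMP, the hepcidin gene, had 2 counts in CC-885 replicate 3 and 0 elsewhere, and the ferroxidase CP had at most 16 counts. Of 9 tested genes in the export and hepcidin list 4 were higher and 1 lower, where 25.8% of all tested genes were higher. BMP2, a ligand of this pathway, rose from 32.9, 32.8 and 28 CPM to 109, 114 and 95.6 CPM (log2 fold change 1.77 with an SE of 0.13, adjusted p = 2.41e-06). SMAD4, the shared signal transducer, rose from 39.2 ± 6.52 to 68.6 ± 11.6 CPM (0.81, adjusted p = 0.00172), though it shares 967 bp of exon with another gene on its strand. ERFE, the erythroid hormone that lowers hepcidin, rose at low levels from 3.36 ± 1.01 to 6.2 ± 0.466 CPM (0.89, adjusted p = 0.00599). BMP6, another BMP ligand, also rose (0.52, adjusted p = 0.00736). The BMP receptors ACVR1 (-0.31, adjusted p = 0.0918) and BMPR1A (-0.03, adjusted p = 0.87), the co-receptor NEO1 (-0.33, adjusted p = 0.254) and the protease FURIN (0.37, adjusted p = 0.0558) were not called. FURIN passed without DMSO replicate 3 (0.44, adjusted p = 0.0245) and with the size factors (0.38, 0.0473) or the Wald test of DESeq2 (0.38, 0.0337), and ACVR1 with the filter of at least 5 CPM in 3 libraries (-0.37, adjusted p = 0.0479). These 4 and BMP6 are named after their values were seen. HEPHL1, a multicopper ferroxidase, was lower at under 2 CPM in every library (-1.77, adjusted p = 0.00677). It passed the filter on low counts only through its DMSO libraries, so its lower direction is not read as a result.

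Among the other genes of IRP control and other mRNAs reported to carry iron-responsive elements, 3 of 6 tested were higher and 1 lower. Of all tested genes 25.8% were higher and 26.8% lower. CDC14A, a phosphatase, rose from 10.2, 9.02 and 12.4 CPM to 47.6, 53.6 and 58.6 CPM, with no overlap (log2 fold change 2.34, SE 0.16, adjusted p = 1.3e-06). The search above found a hairpin match in the 3′ untranslated region of 1 of its transcripts, printed because it is the called gene outside the members with such a match.
CDC14A, 3′ untranslated region, chr1:100518583-100518612, plus strand: tatttacatgtaCAGTGTtacattatatat

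CDC14A shares 183 bp of exon with a noncoding gene on its strand and 231 bp with an antisense transcript. The counts do not resolve transcripts, so whether the CDC14A transcript with this hairpin was the one that rose was not tested. EPAS1, which encodes the hypoxia factor HIF-2α, rose from 202, 141 and 261 CPM to 508, 527 and 502 CPM (log2 fold change 1.35 with an SE of 0.20, adjusted p = 0.000259). The kinase gene CDC42BPA rose by less (0.52, adjusted p = 0.00364). The actin-binding profilin PFN2 was lower (-0.38, adjusted p = 0.0274), which missed the threshold when CC-885 replicate 1 (-0.35, 0.106), 2 (-0.36, 0.111) or 3 (-0.42, 0.0524) was left out. FBXL5, the iron-sensing ligase subunit that marks IRP2 for degradation, stood at 28.3 ± 1.29 with CC-885 and 26.2 ± 4.14 CPM with DMSO and was not called (0.11, adjusted p = 0.539).

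**Figure D4:**
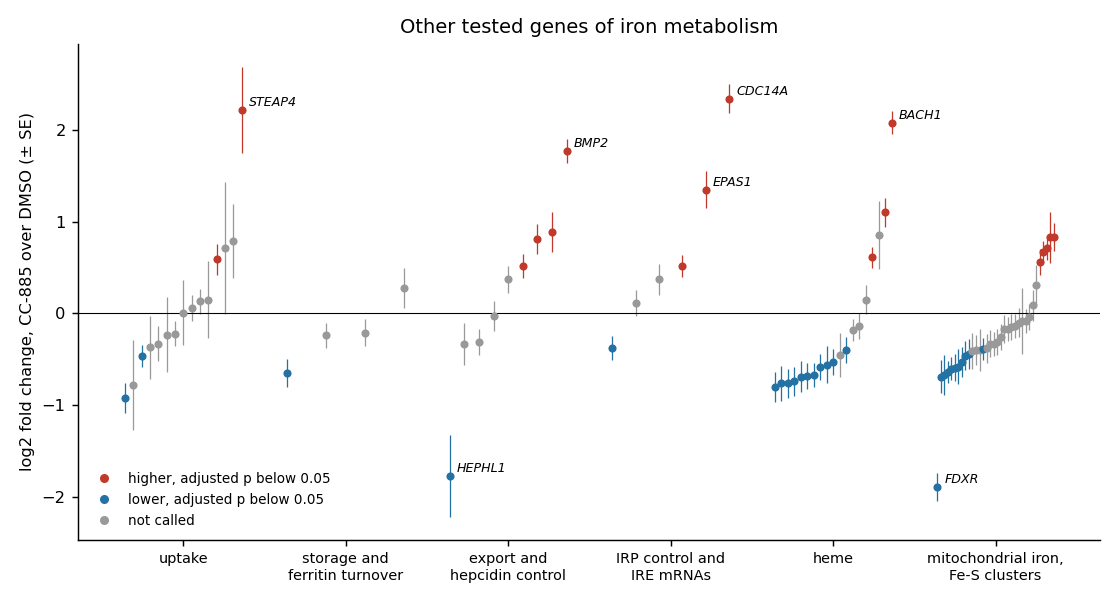
Log2 fold change (CC-885 over DMSO, ± SE) of each tested gene outside the members in the 6 iron lists, ordered by value within a list, red for higher and blue for lower at an adjusted p below 0.05 and grey for not called. CDC14A (2.34), STEAP4 (2.22) and BACH1 (2.08) lie highest and FDXR (-1.89) and HEPHL1 (-1.77) lowest.

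In the heme list 3 of 19 tested genes were higher and 11 lower, where 25.8% of all tested genes were higher and 26.8% lower. ALAS1, the first and rate-limiting enzyme of heme synthesis in liver, rose from 96.8, 68.4 and 101 CPM to 194, 195 and 183 CPM (log2 fold change 1.10 with an SE of 0.16, adjusted p = 0.000183). Of the later enzymes, ALAD, UROS, UROD, CPOX, PPOX and FECH were lower, each with every CC-885 library below every DMSO library. Their log2 fold changes lay between -0.76 for PPOX and -0.53 for FECH, the ferrochelatase that inserts iron into heme, and their largest adjusted p was 0.00666. ALAD, UROD, PPOX and FECH are named after their values were seen, and PPOX shares 1118 bp of exon with B4GALT3 on the opposite strand. BACH1, a heme-sensing repressor of HMOX1 and of both ferritin genes, rose from 18.7, 22.8 and 20 CPM to 80.7, 87.2 and 91.2 CPM (2.08, SE 0.13, adjusted p = 9.25e-07), and shares 302 bp of exon with LINC00189 on its own strand and 45 bp with GRIK1 on the opposite one. HMOX1, the heme oxygenase that frees iron from heme, was lower, at 16.3, 14.8 and 14.4 CPM against 29.6, 20.6 and 26.5 CPM (-0.76, SE 0.16, adjusted p = 0.00213). The transporter FLVCR1, a heme exporter, rose (0.61, adjusted p = 0.00111), while its relative FLVCR2, which shares 332 bp of exon with TTLL5 on its strand and 972 bp with an antisense transcript, was lower (-0.80, adjusted p = 0.00142).

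**Figure D5:**
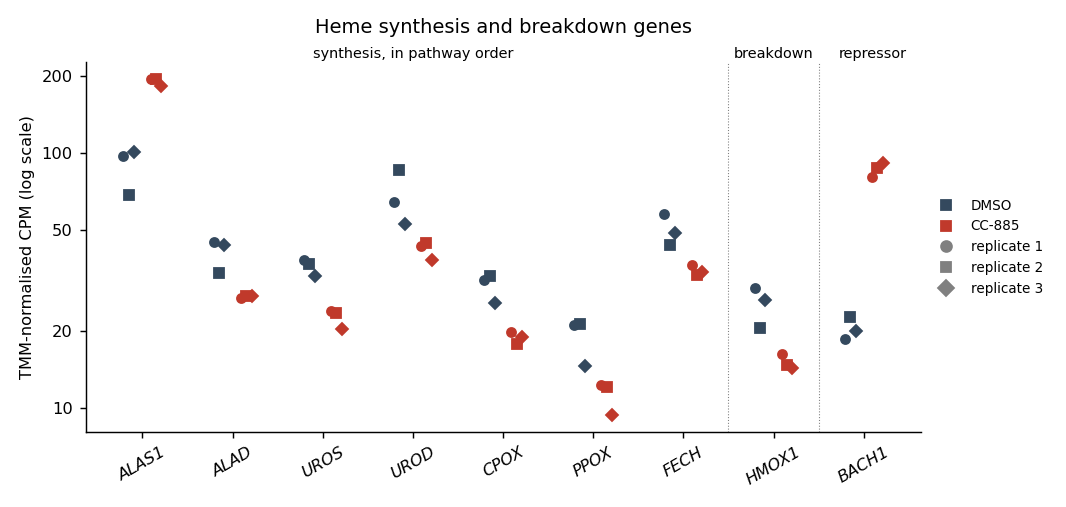
TMM-normalised CPM (log axis) of 7 heme synthesis enzymes in pathway order, of HMOX1 and of BACH1 in each library, DMSO in dark blue and CC-885 in red. ALAS1 and BACH1 lie higher in all 3 CC-885 libraries, and the other 7 genes lie lower.

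Genes of mitochondrial iron and iron-sulfur cluster assembly were called near the background share (47.1% beside 52.6% of all tested genes), with 5 of 34 higher and 11 lower. The count of lower genes fell to 6 without CC-885 replicate 2 and to 7 without CC-885 replicate 3 or DMSO replicate 1, and it was 16 with library size scaling or a filter of at least 5 CPM in 3 libraries and 15 with the replicate number as a block. FDXR, the reductase that feeds electrons to cluster assembly and also a target of p53, had the largest difference of the list, from 66.3, 67 and 50.2 CPM to 16.7, 16.7 and 16 CPM (log2 fold change -1.89 with an SE of 0.15, adjusted p = 2.88e-06). ISCU, the scaffold on which clusters form, fell from 66.5 ± 4.58 to 42.8 ± 1.12 CPM (-0.64, adjusted p = 0.00102). GLRX5, a glutaredoxin that passes clusters on, fell as well (-0.60, adjusted p = 0.00175). The mitochondrial chaperone HSPA9 rose from 447 ± 59.5 to 796 ± 67.1 CPM (0.83, adjusted p = 0.000968). NDOR1 (0.67, adjusted p = 0.000965) and GFER (0.71, adjusted p = 0.00109), which act in or toward the cytosolic assembly of clusters, rose too.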

How the data were processed

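RNA was sequenced from 3 CC-885 and 3 DMSO libraries of HCCLM3 cells. The authors deposited whole-number counts per gene, 1 column per library, with no normalization, per the file headers and values. The aligner, counter and annotation were not given in the sources used here. Mouse builds, GRCm38 and mm10, stand in the submitters' processing notes, although all 20263 rows carry human Ensembl identifiers. Of the counts from 1 to 9, 68.7% were even, so fragments may have been counted more than once. Rows were named by a gene name table (20148) or GENCODE 29 (76), and 39 had no name.

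The members and lists were chosen with earlier results of these data known. Counts were fitted with edgeR 4.0.16 (R 4.3.3): TMM, filterByExpr with a minimum count of 10, robust quasi-likelihood F test, no covariate, Benjamini-Hochberg adjustment over 13444 genes, called at 0.05. Each SE was computed as |log2 fold change| / √F. The fit was also run on simulated data in which far fewer genes were changed than were called here. How it behaves under so wide a change was not tested. Alternatives used DESeq2 1.42.0, limma 3.58.1, other scalings and filters, halved counts, a replicate block and each library left out. Coordinates and exon lengths are from GENCODE 29 (GRCh38), matched by gene identifier.

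Named by rule were the members, up to 3 higher and 3 lower called genes with the smallest p per iron list, 14 fixed genes and the 5 most like SCARA5, of which 4 are given; genes said to be named after their values were seen fall outside this rule. A pair of genes is not reported here.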

Additional observations from a re-analysis of the deposited data

How the results depend on the processing

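The log2 fold change of SCARA5, a description, lay between -3.89 and -3.33 when a library was left out. The number of higher members ranged from 1 to 3 and that of lower members from 3 to 5 when a library was left out, and that of lower mitochondrial and iron-sulfur genes from 6 to 13, with 15 or 16 under 3 other settings. Lower scavenger receptors besides SCARA5 numbered 2 in place of 1 with a CPM of at least 5 in 3 libraries and with library size scaling, and 1 to 2 when a library was left out. SCARA3, not called, turned from 0.05 to -0.01 with that CPM filter, to -0.00 with library size scaling and to -0.05 without DMSO replicate 2 (-0.05 to 0.17 when a library was left out); the cause was not tested. Library size scaling moved the median of all genes from -0.04 to -0.10. BMPR1A, not called at -0.03, ran from -0.15 to 0.16 when a library was left out, the latter without DMSO replicate 2. Of 830 values of single genes under alternatives, 796 kept their direction and side of the threshold. Replicate numbers are shared between groups, but the deviations of same-numbered libraries correlated at only 0.0958, 0.0311 and 0.0722, and replicate 2 of each group did not match best with its own number. With the replicate block, 7273 genes were called in place of 7069, the members stayed at 2 higher and 4 lower, and SCARA5 was at -3.56. Depth limits SLC40A1, HAMP, TF and CP, which were too low to compare.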
